A study of Mus musculus with 12 samples.

Results

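The genes described here encode cytokines, chemokines, interferons, transforming growth factor-beta (TGF-beta) and colony-stimulating factors, the receptors of these ligands, and the kinases and transcription factors that carry their signals. The members were all non-control array probes whose gene name begins with Il and a digit, Ccl, Cxcl, Ccr, Cxcr, Scya to Scyd, Ifn, Ifi, Irf, Stat, Jak, Tgfb or Csf and a digit, apart from Csf1r. The rule read only the gene names and no measured value. It found 81 probes with 62 gene names among the 20280 probes of the array, and all 81 passed the filter on dim probes in every comparison. Their gene names were current mouse symbols for 52, and older names of another symbol for the remaining 10, such as Il17r for Il17ra and Tgfb1i4 for Tsc22d1. In this count Il25, a current symbol that also is an older name of Mydgf, was taken as the older name, and the files do not settle which of both genes its probe measures.

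RNA was measured in whole liver of male FVB mice, 6 weeks old, which were fed freely or had fasted for 12, 24 or 72 hours. Fasting meant that chow was taken away, and from 24 hours on the fasted mice were warmed with an infrared lamp. Each group had 3 arrays, and each array held Cy3-labelled RNA pooled from 2 livers next to a Cy5-labelled common reference of 6 fed livers. The values below are log2 ratios of sample over reference, so that 0 is the level of the fed reference and 1 is a doubling. The SD between arrays is one between pools. In whole liver, fewer cells of a type and less RNA per cell cannot be told apart.

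Cytokines are secreted proteins that bind receptors on the surface of nearby or distant cells. Receptors of the interleukin-6 and interferon type, and those of the colony-stimulating factors Csf2 and Csf3, have no enzyme activity of their own. They signal through Janus kinases (JAK), which phosphorylate STAT transcription factors. Interleukin-1 and interleukin-18 signal through related receptors that lead to NF-kappaB, and TGF-beta binds serine/threonine kinase receptors. In liver, Kupffer cells, the resident macrophages, produce many of these ligands, and hepatocytes respond to them with the acute-phase response.

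Whether the abundance of these transcripts changed during fasting was asked by comparing each fasted group with the fed group, and the 72-hour with the 24-hour group. The interleukin-1 receptor Il1r1 had the largest difference, 3.54-fold above fed liver at 72 hours, a value that passed the test only with 2 low-signal arrays left out or with the arrays weighted. The chemokine Ccl2, the interferon-inducible Ifi47, the cytokine Il18 and a probe of Tgfb1i4 lay below fed liver on all 6 arrays of the 12- and 24-hour groups, with log2 fold changes between -0.91 and -0.43. With limma and all arrays, 0 of the 81 probes passed the test, an adjusted p under 0.05 over all probes together with a 1.4-fold difference, in any of the 4 comparisons. Over the whole array the same test called 0.00497% of the probes at 12 hours, 0.00497% at 24 hours, 0.00996% at 72 hours and 0% between 24 and 72 hours. The smallest adjusted p among the members was 0.956 at 12 hours and 1.00 in the other 3 comparisons. At an unadjusted p under 0.05 in limma, 5, 4, 4 and 4 members differed, respectively, against 3.92%, 3.04%, 1.55% and 3.42% of all probes. The 5 at 12 and the 4 at 24 hours were all lower, as were 1.93% and 1.31% of all probes. At 72 hours 2 were higher and 2 lower (1.12% and 0.428% of all probes), and all 4 between 24 and 72 hours were higher at 72 hours (1.62%). A difference of 1.4-fold or more, whatever the p, was found for 11, 5, 4 and 8 members, against 12.8%, 6.73%, 5.92% and 8.92% of all probes. Of the members with values on all arrays of both groups, 9 of 51, 8 of 54, 13 of 52 and 9 of 69 had groups that did not overlap, against 12.7%, 11.4%, 18.9% and 15% of all probes. The median log2 fold change of the members was -0.065, -0.035, -0.049 and -0.011, and that of all probes -0.0056, -0.0022, -0.015 and -0.0083.

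**Figure D1:**
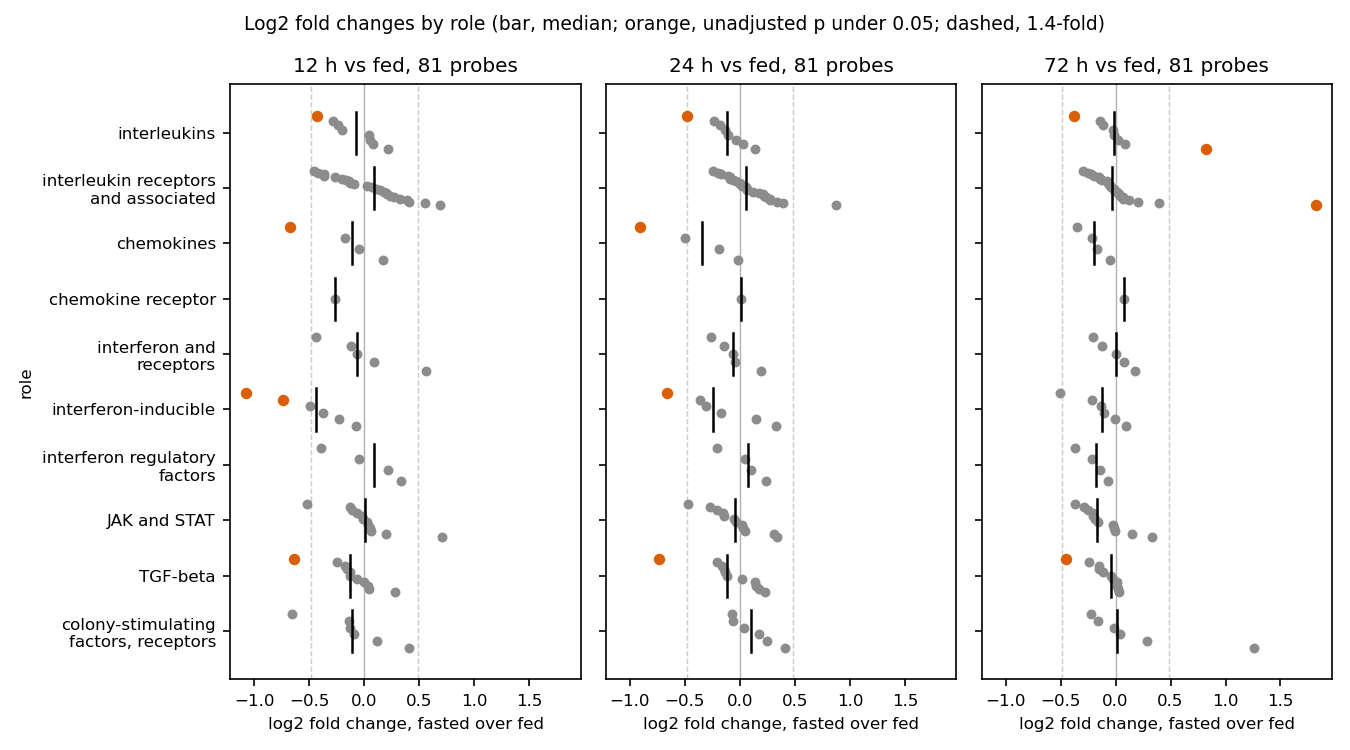
Log2 fold change of each of the 81 probes (x axis) by role (y axis) at the 3 fasting times against fed, one point per probe. Black bars are medians, orange points have an unadjusted p under 0.05 in limma, and dashed lines mark 1.4-fold. Most points lie between the dashed lines, and Il1r1 with 1.82 at 72 hours lies farthest out.

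The arrays did not measure the members equally well. The median sample signal over local background of all probes was 4.72 on replicate 2 of the 12-hour group and 3.50 on replicate 3 of the 24-hour group, and 5.34 to 10.6 on the others. On the first of these arrays 34 members lay above the 95th percentile of the 162 negative control spots, against 67 to 81 on the other 11 arrays. There, 25 of the members also differed from the reference by more than 1 on the log2 scale, against 0 to 5 elsewhere. Over the members, replicate 2 at 12 hours correlated with the other arrays of its group at -0.21 and -0.22, which describes these probes and carries no test, and both low-signal arrays correlated with each other at 0.53. The values of the members, which are over all arrays unless stated, are therefore also given without both arrays, which leaves 2 arrays at 12 and 2 at 24 hours. The arrays left at these times were all quantified on a day that held no fed and no 72-hour array. In their 12- and 24-hour values, and in the step from 24 to 72 hours, fasting and day of quantification therefore cannot be told apart. Ranges over the 3 times without both arrays hold the 72-hour values of all arrays, since that group lost none. Then 1, 10, 1 and 1 members passed the test in the 4 comparisons, against 2.60%, 8.81%, 0.837% and 1.30% of all probes. At 24 hours Il1r1, Csf3r, Il15ra, Jak1 and a probe of Stat6 were higher (5.21% of all probes), and Ccl2, Il18, Il2rg, a probe of Tgfb1i4 and another of Stat6 were lower (3.61%). The member called at 12 and at 72 hours was Il1r1, which was higher (1.71% and 0.687% of all probes), and Il15ra was lower at 72 than at 24 hours (0.906%). With all arrays kept but weighted by how well they fitted, 8, 10, 4 and 2 members passed, against 9.53%, 10.5%, 4.09% and 4.26% of all probes. With the day of quantification as a block, 18 and 9 passed at 12 and 24 hours, against 23.3% and 12.0% of all probes, values that rest on the low-signal arrays because fed arrays shared a day with no other 12- or 24-hour array. In that fit 0 of 78 members passed at 72 hours (0.0209%) and 5 of 78 between 24 and 72 hours (9.64%).

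**Figure D2:**
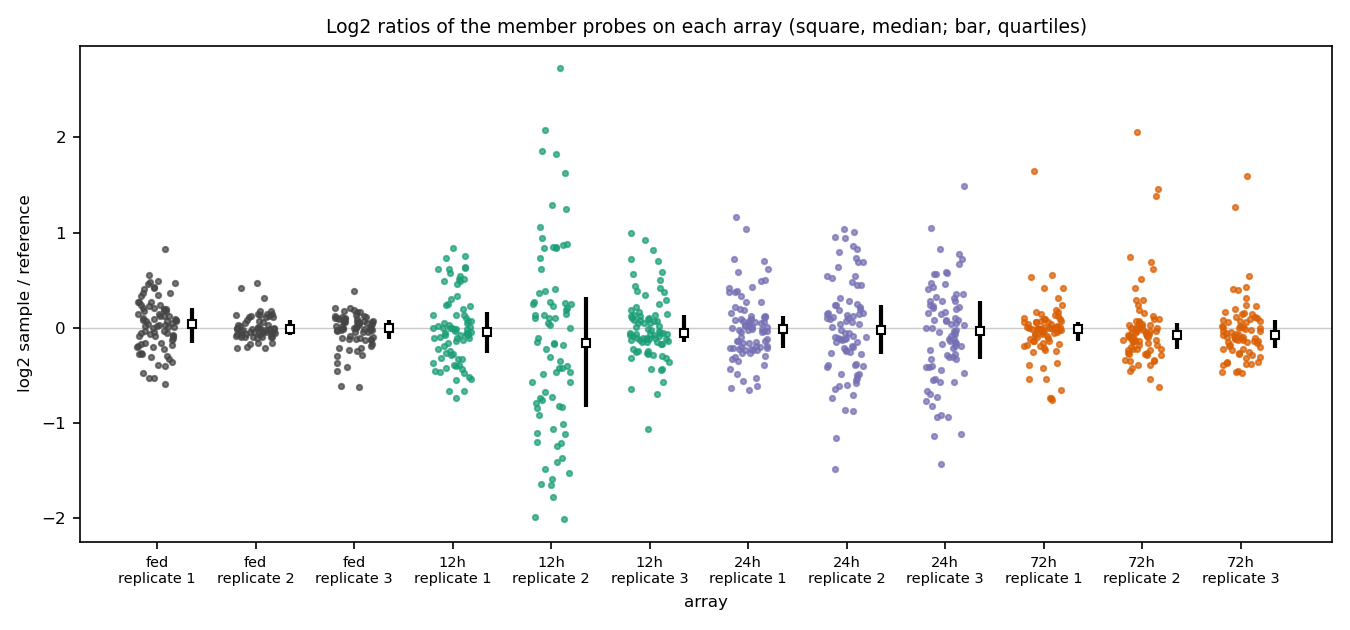
Log2 ratio of sample over reference (y axis) of the member probes on each of the 12 arrays (x axis), one point per probe, with the median (square) and the quartiles (bar). The medians lie between -0.16 and 0.037, and the spread is widest on replicate 2 of the 12-hour group, with an SD over probes of 0.98.

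The largest difference from fed liver was that of Il1r1 (feature 19418), the signalling receptor of interleukin-1. Its log2 ratio was -0.27, -0.11 and -0.12 on the fed arrays and 0.51, -1.41 and 1.00 on the 12-hour arrays. It was 1.17, 0.96 and -0.0044 at 24 hours and 1.65, 2.05 and 1.27 at 72 hours. All 72-hour arrays lay above all others, and the lowest value of the 12- and of the 24-hour group was that of the low-signal array. The log2 fold change at 72 hours was 1.82 ± 0.53 (SE), a 3.54-fold higher level, with an unadjusted p of 0.00562 and an adjusted p of 1.00 in limma. It was 0.20 at 12 and 0.87 at 24 hours (adjusted p = 0.972 and 1.00). Without both low-signal arrays it was 0.92 at 12, 1.23 at 24 and 1.82 at 72 hours, with adjusted p-values of 0.0478, 0.0116 and 0.00300. With the day of quantification as a block the early direction turned, with -0.77 at 12, -0.10 at 24 and 1.77 at 72 hours (adjusted p = 0.195, 0.903 and 0.116). All 72-hour arrays were quantified on the same day as fed replicates 2 and 3, and within that day the difference was 1.77. The step from 24 to 72 hours was 0.95 ± 0.53 (SE, adjusted p = 1.00), and 0.59 without the low-signal array (adjusted p = 0.137), so that it passed in neither fit. With the day of quantification as a block it was 1.87 and passed (adjusted p = 0.0485 in limma), a value that rests on the low-signal arrays.

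Because Il1r1 stood out, the windows around its RefSeq starts are shown, 250 bases before to 50 after the start on build GRCm38.p6, plus strand, 5′ to 3′. The first is chr1:40224830-40225129 and the second chr1:40266336-40266635. They were searched on both strands for the STAT-binding GAS element, spelled TTCNNNGAA, and for the core of the interferon-stimulated response element, GAAA and again GAAA with any 2 bases between. Both may overlap, and matches are printed in capitals. Neither spelling was found in either window.
Il1r1, first start: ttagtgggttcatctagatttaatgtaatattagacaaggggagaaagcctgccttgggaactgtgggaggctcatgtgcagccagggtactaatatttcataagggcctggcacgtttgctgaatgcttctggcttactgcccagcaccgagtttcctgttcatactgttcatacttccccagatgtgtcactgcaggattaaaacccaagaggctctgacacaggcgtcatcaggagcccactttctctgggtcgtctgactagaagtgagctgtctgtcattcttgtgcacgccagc
Il1r1, second start: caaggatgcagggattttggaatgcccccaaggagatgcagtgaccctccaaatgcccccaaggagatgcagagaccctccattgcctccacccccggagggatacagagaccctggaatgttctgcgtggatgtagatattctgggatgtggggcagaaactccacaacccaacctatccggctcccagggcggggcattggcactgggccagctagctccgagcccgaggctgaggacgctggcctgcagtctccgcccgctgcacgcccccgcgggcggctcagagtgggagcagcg

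**Figure D3:**
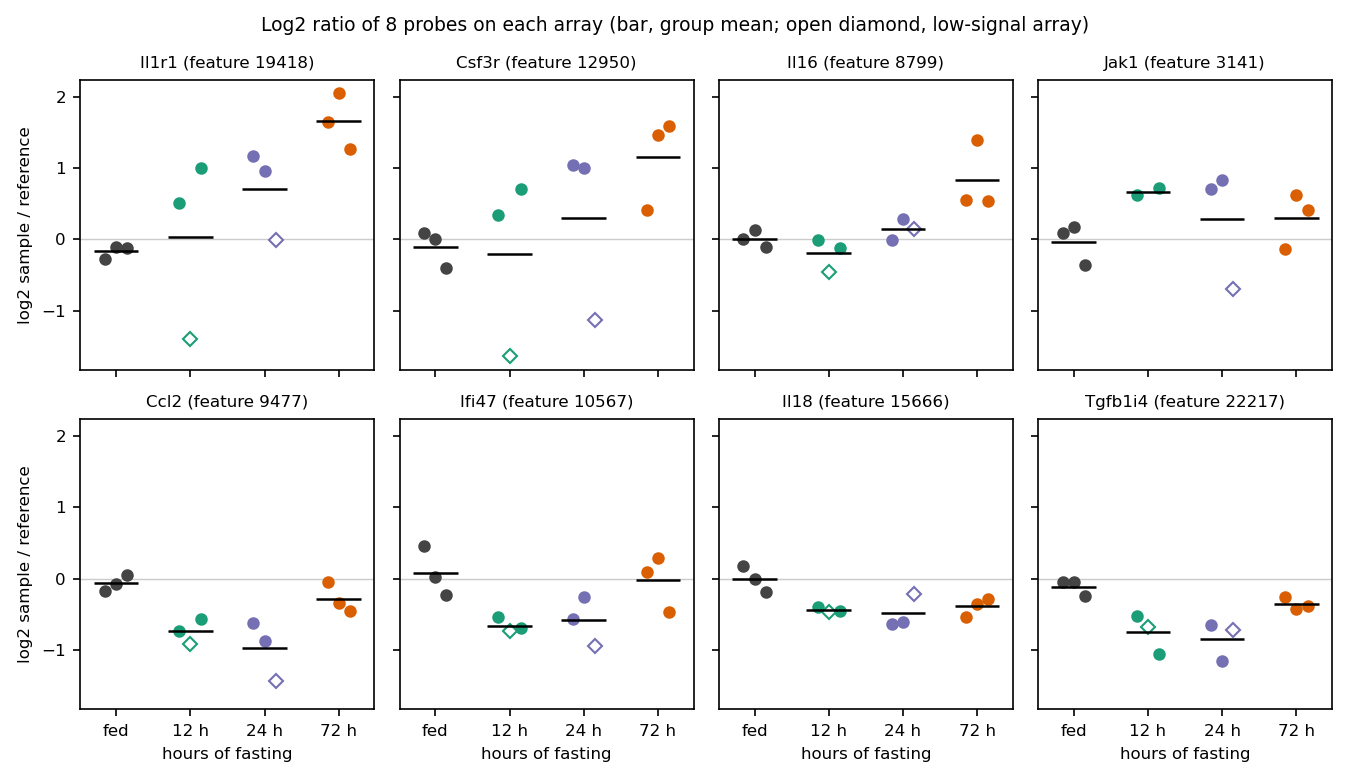
Log2 ratio of sample over reference (y axis) of 8 member probes on the fed arrays and those of the 12-, 24- and 72-hour fasts (x axis), one point per array with the group mean as a bar. Open diamonds are replicate 2 at 12 hours and replicate 3 at 24 hours, the low-signal arrays, and Jak1 has no value on the former. Il1r1 at 72 hours (1.27 to 2.05) lies above all other arrays, and Ccl2 at 12 and 24 hours (-1.43 to -0.57) lies below the fed arrays.

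Among the chemokines, Ccl2, the attractant of monocytes, was lower early in fasting. Its log2 ratio was -0.18, -0.072 and 0.052 on the fed arrays, and -0.74, -0.92 and -0.57 at 12 hours. At 24 hours it was -0.62, -0.88 and -1.43, and at 72 hours -0.045, -0.34 and -0.46. All arrays of the 12- and 24-hour groups lay below all fed and all 72-hour arrays, while fed and 72-hour arrays overlapped. The log2 fold change was -0.67 ± 0.21 (SE) at 12 hours and -0.91 ± 0.21 at 24 hours, with unadjusted p-values of 0.00940 and 0.00141 and adjusted p-values of 0.956 and 1.00 in limma. Without both low-signal arrays it was -0.59 (adjusted p = 0.0575) and -0.68 (adjusted p = 0.0210), so that the 24-hour difference then passed. From 24 to 72 hours the difference was 0.70 ± 0.21 (SE, adjusted p = 1.00). Ccl2 was a dim probe, above the negative controls on 8 of 12 arrays and not well above background on 2. Cxcl12, which retains stem cells and lymphocytes, and Cxcl16, the ligand of Cxcr6, had log2 fold changes between -0.50 and 0.17 at the 3 times over their 3 probes, and between -0.35 and 0.65 without the low-signal arrays. For Cxcr6 itself, the only chemokine receptor here, they were -0.27, 0.013 and 0.075, and -0.11 and -0.19 at 12 and 24 hours without those arrays. Markers of Kupffer cells and macrophages, which can produce Ccl2, were measured by 7 probes of Lyzs, C1qa, C1qb, C1qc, Msr2 and Csf1r. Their mean log2 ratio per array was -0.090 to 0.17 in the fed group, -1.27 to 0.047 at 12 hours, -0.53 to 0.039 at 24 hours and -0.22 to -0.11 at 72 hours, and without the low-signal arrays its mean was 0.022 at 12 and 0.023 at 24 hours. The lowest of these array means was that of a low-signal array, 2 of the 7 probes were above the negative controls on all 12 arrays, and their part in the Ccl2 result was not tested.

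Of the 8 probes of interleukins, Il18, a cytokine of macrophages that induces interferon-gamma, was lower at every time. Its log2 ratio was 0.18, -0.010 and -0.19 in the fed group, and -0.40, -0.46 and -0.45 at 12 hours. It was -0.63, -0.61 and -0.22 at 24 hours and -0.53, -0.35 and -0.29 at 72 hours. Each of the 9 fasted arrays thus lay below the lowest fed array. The log2 fold changes were -0.43, -0.48 and -0.38, each ± 0.16 (SE), with unadjusted p-values of 0.0246, 0.0142 and 0.0399 and adjusted p-values of 0.956, 1.00 and 1.00 in limma. At 24 hours the difference passed without both low-signal arrays (-0.61, adjusted p = 0.0197), and at 12 and 72 hours it did not (adjusted p = 0.0972 and 0.153). The comparisons with fed liver share the 3 fed arrays, so the 3 differences are not independent of each other. The probes of Il1a and Il1b, the ligands of Il1r1, had log2 fold changes between -0.11 and 0.21 at the 3 times, and between -0.062 and 0.23 without the low-signal arrays. Il2 and Il7, growth factors of lymphocytes, lay between -0.24 and 0.043 (-0.18 and -0.019 without those arrays), and the probe named Il25 between -0.18 and 0.052 (-0.14 and 0.31). None of these 5 genes came to an unadjusted p under 0.05.

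A probe named Il16, feature 8799, had its highest values after 72 hours, but its description in the files is that of Stard5, a lipid-transfer protein whose gene is the direct neighbour of Il16 in the RefSeq annotation. Its log2 ratio was 0.0017, 0.12 and -0.11 in the fed group, -0.016, -0.46 and -0.12 at 12 hours, and -0.0049, 0.28 and 0.15 at 24 hours. At 72 hours it was 0.55, 1.39 and 0.54, above all arrays of the other groups. The log2 fold change was 0.82 ± 0.23 (SE), with an unadjusted p of 0.00470 and an adjusted p of 1.00 in limma. With all arrays kept but weighted, it was 0.87 and passed (adjusted p = 0.0120 in limma). The second Il16 probe, feature 132, which is described as interleukin 16, had -0.28, -0.23 and -0.013 at the 3 times, and 0.060 and -0.32 at 12 and 24 hours without the low-signal arrays. The value of feature 8799 is therefore not read here as a level of interleukin 16, while in all counts it stays under the name Il16 by which the rule found it.

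Among the 24 probes of interleukin receptors and associated proteins, Il1r1 was the only one at an unadjusted p under 0.05 at any time. The median log2 fold change of the 24 was 0.086 at 12, 0.057 at 24 and -0.029 at 72 hours. It was -0.034 at 12 and 0.019 at 24 hours without the low-signal arrays, so that its sign at 12 hours rested on these arrays. The partner chain of Il1r1, Il1rap, had log2 ratios of 0.11, 0.12 and -0.30 in the fed group, 0.25, 0.40 and 0.92 at 12 hours, 0.59, 0.79 and -0.29 at 24 hours and -0.42, -0.34 and 0.10 at 72 hours. The 12-hour arrays lay above the fed arrays, and the 24- and 72-hour arrays overlapped with them. Its log2 fold changes were 0.55, 0.39 and -0.20, each ± 0.29 (SE, adjusted p = 0.956, 1.00 and 1.00), and without the low-signal arrays 0.61 at 12 and 0.72 at 24 hours (adjusted p = 0.139 and 0.0616). The kinase of this receptor, Irak1, here under its older name Il1rak, had log2 fold changes of -0.37, -0.094 and -0.044, the first 2 of which were -0.28 and -0.47 without those arrays. The 4 probes of Il1rl1, the interleukin-33 receptor, lay between -0.25 and 0.69. The upper end was feature 20581 at 12 hours, with -0.11, 2.73 and -0.11 on the 3 arrays, and without the low-signal array it was -0.26. The 4 probes lay between -0.26 and 0.51 without both such arrays. Il1rl2, the interleukin-36 receptor, lay between -0.29 and 0.41, and its upper end likewise came from 12 hours, with -0.050, 1.85 and -0.17 on the arrays and -0.25 without the low-signal one. Il1rl1l, now Tmed1, lay between -0.015 and 0.27, and between -0.028 and 0.072 without those arrays.

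Il15ra, which presents interleukin-15, had a 12-hour mean that rested largely on 1 array. Its log2 ratio was 0.069, -0.066 and -0.11 on the fed arrays, 0.54, -2.01 and 0.56 at 12 hours, 0.43, 1.03 and -0.57 at 24 hours and -0.24, -0.0075 and -0.024 at 72 hours. The low-signal arrays were the lowest of their groups, and the other 4 arrays of these groups lay above all fed and 72-hour arrays. The log2 fold changes at 12 and 24 hours were -0.27 and 0.34 over all arrays, and 0.59 (adjusted p = 0.0755) and 0.77 (adjusted p = 0.0204) without both. The common gamma chain Il2rg went the other way, with 2.08 on the low-signal array at 12 hours and -0.31 and -0.32 on its other 2 arrays. At 12 hours its log2 fold change was 0.33 over all arrays and -0.47 without them. That at 24 hours was -0.17 over all arrays and -0.51 without them (adjusted p = 0.0325), and it was above the negative controls on 9 of 12 arrays. The chains for interleukin-4 (Il4ra), interleukin-10 (Il10ra, Il10rb), interleukin-17 (Il17r, Il17rl), interleukin-2 (Il2ra), interleukin-3 (Il3ra) and interleukin-7 (Il7r) lay between -0.42 and 0.39 at the 3 times, and between -0.48 and 0.49 without the low-signal arrays. Il11ra2, a near-identical copy of the interleukin-11 receptor gene Il11ra1, from which its probe may not separate it, lay between -0.46 and 0.12, or 0.11 at 12 hours without the low-signal array. The 3 probes of Il6st, the gp130 chain shared by the receptors of interleukin-6 type cytokines, lay between -0.20 and 0.13, and between -0.14 and 0.35 without those arrays.

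The JAK kinases and STAT factors comprised 12 probes, and 0 of them came to an unadjusted p under 0.05 at any time. Their median log2 fold change was 0.0060 at 12, -0.047 at 24 and -0.17 at 72 hours, when 10 of the 12 were lower and all probes had a median of -0.015. The 12- and 24-hour medians were -0.036 and -0.069 without the low-signal arrays. Jak1, which serves many of these receptors, had log2 ratios of 0.092, 0.18 and -0.37 on the fed arrays. It had 0.62 and 0.72 on the 2 arrays with a value at 12 hours, 0.70, 0.83 and -0.70 at 24 hours and -0.13, 0.62 and 0.40 at 72 hours. Again the low-signal array had the lowest 24-hour value. Its log2 fold change at 24 hours was 0.31 ± 0.38 (SE, adjusted p = 1.00), and 0.80 without the low-signal arrays (adjusted p = 0.0419). Stat5b, which serves growth hormone in liver, was the brightest of these probes, 173 times its local background in the fed group. It had log2 fold changes of -0.13, -0.037 and -0.20, with 2 of 3 arrays measured at 12 hours, and -0.093 at 24 hours without the low-signal array. Jak2, Stat2, Stat4 and Stat5a lay between -0.37 and 0.19 over their 6 probes, and between -0.37 and 0.44 without the low-signal arrays. The probes of Stat6, the factor of interleukin-4, lay apart at 24 hours, with 0.33 and -0.47 over all arrays. They had 0.70 for feature 11170 (adjusted p = 0.0393) and -0.66 for feature 19351 (adjusted p = 0.0399) without the low-signal arrays.

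The interferon genes and receptors, Ifng, Ifnar, Ifngr and Ifngr2, had log2 fold changes between -0.44 and 0.56 over their 5 probes, and 0 came to an unadjusted p under 0.05. Both ends came from the low-signal array at 12 hours, where Ifnar (feature 10922) had -0.062, -1.36 and -0.11 and Ifngr2 had -0.40, 1.62 and -0.11 on the 3 arrays. Without it these changes were -0.013 and -0.065, and without both low-signal arrays the 5 probes lay between -0.72 and 0.22. Of the interferon regulatory factors, Irf1 had log2 fold changes of 0.33 at 12, 0.10 at 24 and -0.37 at 72 hours, and Irf3 had -0.049, 0.24 and -0.22. The 12-hour value of Irf1 rested on the low-signal array, with 0.62, 1.28 and 0.14 on the 3 arrays. Without both such arrays Irf1 had 0.029 at 12 and 0.10 at 24 hours, and Irf3 0.16 and 0.28. From 24 to 72 hours the differences were -0.47 for Irf1 and -0.45 for Irf3 (adjusted p = 1.00 for both).

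Over all arrays the 6 probes of the interferon-inducible genes had log2 fold changes below 0 at 12 hours, with a median of -0.44, against -0.24 at 24 and -0.12 at 72 hours. Without the low-signal arrays 3 of the 6 were below and 3 above 0 at 12 hours, and the median was -0.068 at 12 and -0.055 at 24 hours, so that the early shift of the group rested on these arrays. Ifi47, a GTPase induced by interferon-gamma, had log2 ratios of 0.46, 0.028 and -0.23 in the fed group and -0.54, -0.74 and -0.70 at 12 hours. It had -0.56, -0.25 and -0.94 at 24 hours, and 0.094, 0.30 and -0.46 at 72 hours. Both early groups lay below the fed arrays, and the 72-hour arrays overlapped with them. The log2 fold changes were -0.74, -0.67 and -0.11, each ± 0.25 (SE), with unadjusted p-values of 0.0135, 0.0228 and 0.676 and adjusted p-values of 0.956, 1.00 and 1.00 in limma. Without both low-signal arrays they were -0.70 at 12 and -0.49 at 24 hours (adjusted p = 0.118 and 0.186). Ifi202a had the lowest log2 fold change at 12 hours, -1.07 ± 0.39 (SE, adjusted p = 0.956), from only 2 values, -1.77 on the low-signal array and -0.15 on replicate 3. It was -0.26 without that array. Near-identical relatives of this gene and of Ifitm3l exist in the mouse, and whether these probes separate them is not given in the sources used here. Ifi30, a thiol reductase of antigen processing, had -0.49, -0.31 and -0.51, with -0.16, -1.21 and -0.43 on the 12-hour arrays, and -0.19 and -0.11 at 12 and 24 hours without the low-signal arrays. Its 72-hour arrays, with -0.75, -0.62 and -0.47, lay below the fed arrays, with 0.071, 0.055 and -0.45. With all arrays kept but weighted, the 72-hour difference was -0.56 and passed (adjusted p = 0.0231 in limma). Ifi204 lay between -0.38 and 0.15 over its 2 probes, and between -0.13 and 0.28 without those arrays. Ifitm3l, the brightest of the class, had -0.073, 0.33 and 0.10, but 0.46, -1.59 and 0.42 on the 12-hour arrays against 0.011, 0.12 and -0.63 on the fed arrays, and 0.60 and 0.74 at 12 and 24 hours without the low-signal arrays (adjusted p = 0.226 and 0.0997). Of interferon-stimulated genes outside the rule, 0 of 14 probes passed the test. At an unadjusted p under 0.05, 1 was lower at 12 hours (Psmb8, an immunoproteasome subunit, -1.01), 2 at 24 hours (Psmb8, -0.97, and Psmb10, -0.68) and 2 at 72 hours (Psmb10, -0.88, and the GTPase Igtp, -0.49), against 1.93%, 1.31% and 0.428% of all probes. Psmb8 had -0.62 at 12 and -0.95 at 24 hours without the low-signal arrays, and Psmb10 -0.75 at 24 hours. On the fed arrays Psmb8 had 1.22, 0.45 and -0.13, Psmb10 had 1.29 and 0.31 on replicates 1 and 2, and Igtp had 0.52 and -0.040 on replicates 1 and 3, the remaining spots being missing. Irf1, with 0.82, 0.14 and 0.089, and Ifi47 were likewise highest on fed replicate 1, which was quantified on another day than the other 2 fed arrays. The part of that array in the lower fasted levels was not tested.

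The start of Ifi47 is shown because GAS and response-element spellings mark many genes of its class, and that of Il18 because it was lower at all 3 times. Both are windows of GRCm38.p6 on the plus strand, 5′ to 3′, chr11:49076337-49076636 for Ifi47 and chr9:50554450-50554749 for Il18. No match to either spelling lies in these windows, so they hold no capitals.
Ifi47: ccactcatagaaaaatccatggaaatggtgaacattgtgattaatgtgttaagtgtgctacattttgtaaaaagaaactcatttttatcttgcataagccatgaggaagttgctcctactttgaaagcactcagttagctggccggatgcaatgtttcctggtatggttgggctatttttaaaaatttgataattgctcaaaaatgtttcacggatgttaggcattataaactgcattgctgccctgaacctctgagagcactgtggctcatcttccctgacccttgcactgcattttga
Il18: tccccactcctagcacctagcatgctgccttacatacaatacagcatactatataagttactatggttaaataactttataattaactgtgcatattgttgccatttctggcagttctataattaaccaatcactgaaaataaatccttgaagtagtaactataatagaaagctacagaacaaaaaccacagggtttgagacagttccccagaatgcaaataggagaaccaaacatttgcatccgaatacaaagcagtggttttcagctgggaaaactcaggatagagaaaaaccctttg

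RefSeq windows were at hand for 49 of the 62 gene names, 65 windows in all. The GAS spelling was in 7 of the 65 (10.8%), against 8.30% of all 32851 windows, and the response-element core in 5 (7.69%), against 3.44%. Irf1, a gene known to be induced by interferon-gamma, was among the 7. A second Irf1 window, chr11:53770223-53770522, held no match to either spelling. The window with the match is printed with the GAS spelling in capitals, chr11:53769764-53770063, plus strand.
Irf1: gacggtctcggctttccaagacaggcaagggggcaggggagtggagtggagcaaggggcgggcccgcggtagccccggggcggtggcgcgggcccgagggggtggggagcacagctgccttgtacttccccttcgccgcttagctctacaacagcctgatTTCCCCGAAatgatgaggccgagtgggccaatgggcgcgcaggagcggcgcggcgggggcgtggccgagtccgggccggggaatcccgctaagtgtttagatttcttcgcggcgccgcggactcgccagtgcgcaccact

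The TGF-beta ligands, receptors and induced genes had 11 probes, and their median log2 fold change was -0.13, -0.12 and -0.037, the first 2 of which were -0.063 and -0.084 without the low-signal arrays. The ligands Tgfb1, Tgfb2 and Tgfb3 lay between -0.25 and 0.28 over 4 probes (-0.37 and 0.23 without those arrays). The receptors Tgfbr1 and Tgfbr3 lay between -0.17 and 0.17 (-0.063 and 0.17), and the induced genes Tgfbi and Tgfb1i1 between -0.15 and -0.070 (-0.20 and -0.084). Tgfb1i4, now Tsc22d1, a leucine-zipper protein first described as induced by TGF-beta, had 3 probes that differed. Feature 22217, the brightest member at 209 times its local background, had log2 ratios of -0.042, -0.049 and -0.25 in the fed group and -0.52, -0.68 and -1.06 at 12 hours. It had -0.66, -1.16 and -0.72 at 24 hours and -0.25, -0.42 and -0.39 at 72 hours. Each fasted array lay below each fed array, by the narrowest margin at 72 hours. Its log2 fold changes were -0.64, -0.73 and -0.24, each ± 0.19 (SE), with unadjusted p-values of 0.00583, 0.00245 and 0.222 and adjusted p-values of 0.956, 1.00 and 1.00 in limma. The 24-hour value passed without both low-signal arrays (-0.80, adjusted p = 0.0250). Features 20854 and 8723 of the same gene name had log2 fold changes of 0.047 and -0.15 at 12 hours and -0.21 and -0.16 at 24 hours, which became -0.033, -0.11, -0.13 and -0.14 without the low-signal arrays. At 72 hours feature 20854 was the lowest of the 3, -0.45 ± 0.19 (SE, unadjusted p = 0.0330 and adjusted p = 1.00 in limma). RefSeq lists several starts for this gene, and which transcripts the probes reach is not given in the sources used here. Of 28 probes of the TGF-beta superfamily outside the rule, 0 came to an unadjusted p under 0.05 against fed liver at any time. A probe of the activin receptor Acvr2 passed the test without the low-signal arrays, with 0.92 at 12 and 0.90 at 24 hours (adjusted p = 0.0417 and 0.0237), among 1.71% and 5.21% of all probes.

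Among the colony-stimulating factors and their receptors, Csf3r, the granulocyte colony-stimulating factor receptor of neutrophils, had the second largest value at 72 hours. The log2 ratio of feature 12950 was 0.093, 0.00 and -0.41 in the fed group and 0.33, -1.64 and 0.71 at 12 hours. It was 1.04, 1.00 and -1.14 at 24 hours and 0.42, 1.46 and 1.59 at 72 hours. The 72-hour arrays lay above the fed arrays, and the low-signal arrays were the lowest of all 12. The log2 fold change at 72 hours was 1.26 ± 0.68 (SE, adjusted p = 1.00), and 1.36 within the day that held both groups. The 12- and 24-hour values were -0.10 and 0.41 over all arrays. Without the low-signal arrays they were 0.63 (adjusted p = 0.248) and 1.12, of which the latter passed (adjusted p = 0.0401), and that at 72 hours did not (adjusted p = 0.0584). With all arrays kept but weighted, the 72-hour value was 1.38 and passed (adjusted p = 0.00487 in limma). The second Csf3r probe, feature 22056, had -0.66, -0.070 and 0.28. Its 12-hour arrays had -0.45, -1.98 and -0.27, and without the low-signal arrays the first 2 changes were -0.12 and -0.30. Markers of neutrophils (Ltf, Mpo and S100a9), 3 probes with values below 0 at 72 hours against fed, had a mean log2 ratio per array of -0.082 to -0.017 in the fed and -0.21 to -0.12 in the 72-hour group. Csf2, above the negative controls on 2 of 12 arrays, Csf3, Csf2ra and Csf2rb2, a near-identical copy of Csf2rb, lay between -0.23 and 0.41, and between -0.42 and 0.037 without the low-signal arrays. Csf3 turned from 0.41 to -0.42 at 12 hours.

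**Figure D4:**
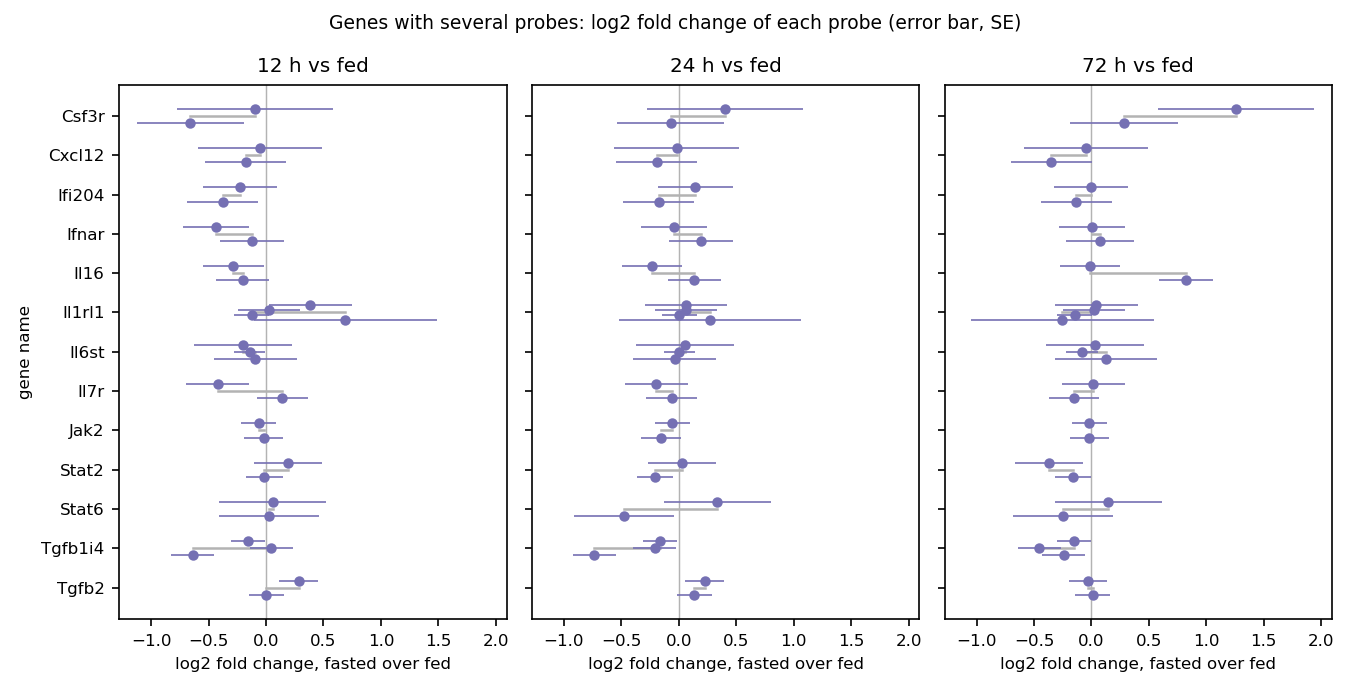
Log2 fold change with its SE (x axis) of each probe of 13 gene names with several member probes (y axis) at the 3 fasting times. The probes of a gene are joined by a grey line, and the widest gap within a gene was 0.98, that of Csf3r at 72 hours.

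In all, 15 gene names had 2 to 4 member probes, 34 in total. Their probes had the same sign for 9 of the 15 at 12 hours, 7 at 24 hours and 9 at 72 hours. The gap between the lowest and the highest probe of a gene reached 0.82, 0.81 and 0.98 at these times. Without the low-signal arrays the signs were the same for 6 of the 15 at 12 and 6 at 24 hours, and the gap reached 1.15 and 1.43. The Il16 pair, of which a probe is described as Stard5, is among the 15 and had the same sign over all arrays at 12 hours only. Over all arrays the probes of Jak2 lay within 0.10 of each other at each time, and those of Il6st within 0.21.

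Regulators around the members were followed through lists of genes that lie outside the rule. Of 25 probes of JAK-STAT regulators and gp130 cytokines, 0 passed the test with all arrays. At an unadjusted p under 0.05, 1 was higher and 1 lower at 12 hours (1.99% and 1.93% of all probes), 1 was lower at 24 hours (1.31%), and 3 were higher and 1 lower at 72 hours (1.12% and 0.428%). Without the low-signal arrays 1 was called higher and 2 lower at 12 hours (1.71% and 0.895% of all probes), 3 higher and 2 lower at 24 hours (5.21% and 3.61%), and 1 each way at 72 hours (0.687% and 0.149%). The higher ones were Cntf, the ciliary neurotrophic factor, with 1.05, 1.09 and 1.00 by feature 5238 and 0.86 at 24 hours by feature 21961, and Cish3 (0.62 at 24 hours). The lower ones were Cntfr and the Janus kinase Tyk2 at 12 and 24 hours and Lifr at 72 hours. Tyk2 had -1.07 and -1.36 at 12 and 24 hours, against 0.31 and -0.39 over all arrays. A probe of Cish2, now Socs2, the feedback inhibitor of growth-hormone and STAT5 signalling, had log2 ratios of 0.25, 0.050 and 0.0022 on the fed arrays. It had 1.22, 1.45 and 1.27 at 12 hours, 1.06, 0.65 and 0.034 at 24 hours and 1.36, 1.94 and 0.68 at 72 hours. All 12- and 72-hour arrays lay above the fed arrays, and the log2 fold changes of this probe were 1.21, 0.48 and 1.23, each ± 0.32 (SE, adjusted p = 0.956, 1.00 and 1.00), and 1.14 and 0.75 at 12 and 24 hours without the low-signal arrays. The other Cish2 probes had 1.08 and -0.14 at 72 hours. Lifr, the leukaemia inhibitory factor receptor of hepatocytes, had -0.91 at 72 hours (adjusted p = 1.00, and 0.0329 without the low-signal arrays). Cntfr, the ciliary neurotrophic factor receptor, had -0.50 and -0.61 at 12 and 24 hours (adjusted p = 0.0380 and 0.0153 without those arrays). In the NF-kappaB and TNF list, 25 of 26 probes were tested and 0 passed. Nfkbib was called higher (0.62) and Relb lower (-0.89) at 24 hours without the low-signal arrays, among 5.21% and 3.61% of all probes. The smallest unadjusted p of the list at 72 hours was that of Nfkbia, the inhibitor of NF-kappaB that is itself an NF-kappaB target, with 1.05 ± 0.26 (SE, unadjusted p = 0.00213 in limma, and adjusted p = 0.0537 without the low-signal arrays).

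As a check of the tissue, 4 probes of the hepatocyte genes Trf, Apoa1 and Ttr were above the negative controls on all 12 arrays. Their mean log2 ratio per array was 0.15 to 0.32 in the fed and -0.67 to 0.078 in the 72-hour group. At 72 hours 2 of the 4 were lower at an unadjusted p under 0.05 in limma, against 0.428% of all probes. The other 2 were higher than in fed liver, and the log2 fold changes of the 4 ranged from -1.35 to 0.30. Of these 4 probes, 1 was called lower at 72 hours without the low-signal arrays, against 0.149% of all probes. Markers of T and NK cells, B cells, endothelial cells and stellate cells had 4, 4, 4 and 6 probes, and 0 of these came to an unadjusted p under 0.05 against fed liver at any time. Without the low-signal arrays the T-cell marker Cd2 was called lower at 24 hours (-0.67), among 3.61% of all probes. In that fit 3 of the 4 probes of its list lay above 0 at 24 hours. The stellate-cell marker Dcn was then called higher at 12 and 24 hours (1.01 and 1.00), among 1.71% and 5.21% of all probes. Of the 6 probes of its list, 4 lay below 0 at each of these times.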

How the data were processed

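Liver RNA of 12 pools was hybridised on 12 two-colour Agilent oligonucleotide arrays. Per the file headers, the deposited files hold median spot intensities and local backgrounds that Feature Extraction 6.1.1 took from the images, not normalized, and log10 ratios of reference over sample that the authors' software had background-subtracted and dye-normalized. The deposited value table holds the same log10 ratios with the sign turned, with differences of at most 4.98e-08. The study's methods describe quantile normalization and a Split-Factor ANOVA, whose program was not used here.

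Of 21446 spots, 1075 control and 91 retired spots were left out. In limma 3.58.1 (R 4.3.3), signals were corrected by normexp with an offset of 50, quantile-normalized over 24 channels and expressed as log2 sample over reference. Outlier spots of either channel were treated as missing, 20 members on fed replicate 2, 10 on fed replicate 3 and at most 7 on other arrays. A probe was tested where 1 group had it well above background on each array and both groups had a value, by lmFit and eBayes over all 4 groups, with Benjamini-Hochberg adjustment over all probes (20081 to 20110). A call needed an adjusted p under 0.05 and 1.4-fold. No dye was exchanged, so a dye effect cancels only between groups. The script was tested on simulated data. The number of arrays and their brightness limit the precision: 30 of 81 members lay above the negative controls on all arrays, 0 were saturated, and the median SD between arrays of a group was 0.15, 0.40, 0.29 and 0.12 for fed, 12, 24 and 72 hours.

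Groups came from the deposited titles. The members, gene lists and tests were chosen with earlier results of these data known. Named are the 8 members with the smallest p in each comparison, members called in any fit given, genes with several probes, and the brightest member of a role, the others by range. Genes of the lists outside the rule were named after their values were seen. Some member genes are not reported here by name. Alternatives were other normalizations, backgrounds and filters, array weights, blocks, and leaving out arrays. Promoter windows are RefSeq's, build GRCm38.p6.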

Additional observations from a re-analysis of the deposited data

Results flagged for a closer look

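The Il16 probe described as Stard5 is listed because all 3 arrays at 12 hours lay below the mean of the fed arrays and all 3 at 72 hours above it. The mean difference from fed was -0.20 at 12 and 0.82 at 72 hours, so that both times were 1.02 apart on the log2 scale. The lowest 12-hour value was that of the low-signal array, -0.46 against -0.016 and -0.12 on the other 2, and without it the 12-hour difference was -0.073. The difference between these times was not tested. With the sample channel alone, the step from 24 to 72 hours of this probe was -0.15, against 0.69 with the ratio to the reference.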

How the results depend on the processing

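The count of members called, 0 in each comparison, was also 0 with loess, the scanner's log ratio, the sample channel alone, another background method, an offset of 10, no filter on dim probes, a stricter one (68 members), outlier spots kept, and for the 30 members above the negative controls on all arrays, a choice made after seeing the data. Leaving out 1 array gave 0 to 0 in all 4 comparisons. Array weights gave 8, 10, 4 and 2 calls at 12, 24 and 72 hours and from 24 to 72 hours, against 1916, 2113, 822 and 856 over all probes. Leaving out both low-signal arrays gave 1, 10, 1 and 1, and the day of quantification as a block 18, 9, 0 and 5, the last 2 over 78 members. The only day that held fed together with 12- or 24-hour arrays paired fed replicate 1 with both low-signal arrays. At an unadjusted p under 0.01 in limma with 1.4-fold, 2, 2, 2 and 1 members differed, against 132, 129, 86 and 101 over all probes. The replicate block gave 0 calls in each comparison. Same-numbered arrays deviated together in 5 of 18 pairs (r over 0.1, range -0.59 to 0.59), so the numbers were not taken as pairs. Of the 324 member values (81 probes in 4 comparisons), 4 turned sign with a call: Il15ra at 12 hours to 0.59 with array weights, and with the day block Stat6 (feature 11170) at 12 hours to -1.21, and at 24 hours Il6st (feature 9429) to -0.91 and Il10ra to 0.87. Another 743 of the 7703 values that the alternatives gave turned sign without a call. The cause of these turns was not tested.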
